A study of Mus musculus with 30 samples.

Results

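Fcor (listed as 2400009B08Rik on the array) and Inhbb were the 2 genes followed here, out of 5049 probes with a symbol and 21025 probes in all whose tissue signal could be measured. They were picked because they ranked highest in fat, over all 30 arrays, among named probes for which both fat arrays lay above every other array. Their level in fat is therefore a description and carries no test, and tests are given for the differences among the other 14 tissues. The choice did not rank genes on those differences, but it bounded the other tissues from above by the fat arrays. Each gene was represented by 1 named probe, Z00026578-1 for Fcor and Z00002490-1 for Inhbb.

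The arrays profiled fat, bone, skin, skeletal muscle, heart, lung, liver, kidney, bladder, stomach, both intestines (small and large), eyes, cerebellum and brain cortex of untreated adult male C57BL/6 mice, 28 weeks old per the labels although the study's methods give another age, with 2 arrays per tissue. Tissue RNA was labelled with Cy3. The same reference RNA, Universal Mouse Reference from pooled cell lines plus RNA of ES cells, was labelled with Cy5 on every array, with no dye swap. Values are logratios, log2 of Cy3 over Cy5 after background correction and loess normalization. Since loess sets the typical ratio at each intensity of an array to 0, a logratio of 0 does not mean equal signal in both channels. Levels of different probes are not comparable with each other.

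The labels call the tissue fat, and the methods call it visceral fat, a mixture of adipocytes with vessel, connective tissue and immune cells. In such bulk tissue, fewer cells of a type and less RNA per cell cannot be told apart. The sources differ on whether the fat arrays stem from separate animals. The submitters' design text describes fat and bone as not replicated, while the study's methods say that each sample had a replicate from another animal, and 2 arrays of each tissue are labelled. The SD of fat may therefore be technical. The fat arrays were also the least alike of any tissue, with an r across probes of 0.671 against a median of 0.980 over the 15 tissues.

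Fcor encodes a small corepressor of Foxo1, the forkhead transcription factor that insulin signalling holds in check. It was described in fat cells, where it binds Foxo1, raises its acetylation and lowers its activity on target genes. Inhbb encodes the beta B subunit of the inhibins and activins, secreted dimers of the transforming growth factor beta family. A pair of beta B subunits forms activin B, and beta B joined to the alpha subunit, from Inha, forms inhibin B. Activins bind a type II receptor (Acvr2a or Acvr2b), which recruits a type I receptor (Acvr1b or Acvr1c) that passes the signal to Smad proteins, and inhibins oppose them. Adipocytes are a known source of the beta B subunit outside the gonads.

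The probe sequences are shown because each level below rests on hybridization to 1 oligonucleotide of 60 bases, read 5′ to 3′ in lower case, with nothing marked. Their position within the transcripts was not used here.
Fcor probe Z00026578-1: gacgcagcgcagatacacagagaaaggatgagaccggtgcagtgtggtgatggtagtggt
Inhbb probe Z00002490-1: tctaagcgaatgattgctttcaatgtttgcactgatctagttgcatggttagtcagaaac
The Fcor oligonucleotide had 55.0% G and C, more than 86.2% of the probes of that length on the array. The Inhbb oligonucleotide had 38.3%, more than 23.5% of them.

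In the RefSeq annotation of GRCm38.p6, Fcor lies at chr8:3671185-3672391 and Inhbb at chr1:119415463-119422248, both on the minus strand, and no other annotated gene overlaps either one. The nearest genes to Fcor are Mcemp1 and Retn, which encodes the adipocyte hormone resistin, on one side and Gm45231 and Trappc5 on the other. The 250 bases before each annotated start are shown because both genes were highest in the same tissue. They are read in the direction of the gene, from RefSeq, and capitals mark every match, on either strand, to 7 short motifs: the TATA box TATAAA, the CCAAT box CCAAT, the GC box GGGCGG, the forkhead motif TGTTTAC, the nuclear receptor core motif AGGTCA, the Smad motif CAGAC and the E-box CACGTG.
Fcor, chr8:3672392-3672641, minus strand: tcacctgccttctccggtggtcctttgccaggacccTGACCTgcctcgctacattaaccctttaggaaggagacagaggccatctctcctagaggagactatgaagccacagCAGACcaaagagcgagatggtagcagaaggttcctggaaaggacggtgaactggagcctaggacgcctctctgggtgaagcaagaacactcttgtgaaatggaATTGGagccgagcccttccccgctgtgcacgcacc
Inhbb, chr1:119422249-119422498, minus strand: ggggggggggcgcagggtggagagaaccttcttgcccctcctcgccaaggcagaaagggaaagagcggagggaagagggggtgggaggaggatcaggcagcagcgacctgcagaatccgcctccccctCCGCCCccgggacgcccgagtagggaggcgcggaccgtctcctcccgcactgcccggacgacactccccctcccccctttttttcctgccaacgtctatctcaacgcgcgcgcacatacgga
The Fcor window held 3 matches, AGGTCA beginning 214 bases before the start, CAGAC 138 bases before it and CCAAT 35 bases before it. Among 32851 annotated starts, 14% of such windows held AGGTCA, 42.2% held CAGAC and 33.8% held CCAAT. The Inhbb window held 1 match, the GC box, beginning 122 bases before the start, which 32.7% of windows held. The 2 windows shared no matched motif. Neither held TATAAA, which 12.4% of windows held, TGTTTAC (3.17%) or CACGTG (6.02%). They also differed in composition. The Inhbb window had 68.0% G and C and 21 CG dinucleotides, more than 83.7% of windows, and the Fcor window had 56.0% and 8, more than 57% of windows. The median window had 52.4% and 6. These matches describe letters only.

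Fcor was highest in fat, followed by cerebellum and brain cortex, and lowest in heart. The fat logratios were 1.85 and 2.65 (mean 2.25 ± 0.57, SD, n = 2). Those of cerebellum were 1.41 and 1.43 (1.42 ± 0.01), and those of brain cortex 0.35 and 0.55 (0.45 ± 0.14). Both fat arrays thus lay above all 28 others, and the lower one exceeded the highest cerebellum array by 0.42. The mean in fat was 1.78-fold that of cerebellum, 20.4-fold that of heart and 8.14-fold the mean of the other 14 tissues on the log scale, a log2 difference of 3.03 (SE 0.24).

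Below brain cortex, the Fcor levels formed a continuous slope. Liver had logratios of -0.27 and 0.51, eyes -0.40 and -0.07, and skin -0.33 and -0.18. In bone they were -1.26 and -0.20, in small intestine -1.25 and -0.56, and in lung -1.04 and -1.07. Arrays of neighbouring tissues overlapped throughout this range, and liver, bone and small intestine had the widest spread of the 14 tissues between their own arrays (SD 0.55, 0.75 and 0.49). Bladder followed with -1.05 and -1.60, large intestine with -1.49 and -1.33, and stomach with -1.47 and -1.37. The lowest levels were those of kidney (-1.63 and -1.72), skeletal muscle (-1.60 and -1.87) and heart (-2.14 and -2.06). Heart and skeletal muscle, the striated muscles, thus closed the order.

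Inhbb was also highest in fat, but the tissues that followed were lung and skin, not brain. The fat logratios were 1.82 and 1.45 (mean 1.63 ± 0.26). Those of lung were 0.73 and 1.32 (1.02 ± 0.42), and those of skin 0.33 and 0.99 (0.66 ± 0.47). The lower fat array exceeded the higher lung array by 0.12, less than the SD of either tissue. The mean in fat was 1.52-fold that of lung, 12.2-fold that of small intestine and 5.55-fold the mean of the other 14 tissues, a log2 difference of 2.47 (SE 0.19).

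All other tissues had Inhbb logratios below 0. Bladder (-0.17 and -0.10) and cerebellum (-0.38 and -0.29) were the highest of these. Brain cortex had -0.90 and -0.57, stomach -0.79 and -0.68, and bone -1.39 and -0.61. Eyes (-1.13 and -1.02), heart (-1.35 and -1.17) and kidney (-1.39 and -1.16) came next. The low end was held by liver (-1.75 and -1.38), large intestine (-1.82 and -1.56), skeletal muscle (-1.59 and -1.79) and small intestine (-2.18 and -1.79). Both parts of the intestine were thus among the 3 lowest tissues, and stomach was not.

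**Figure D1:**
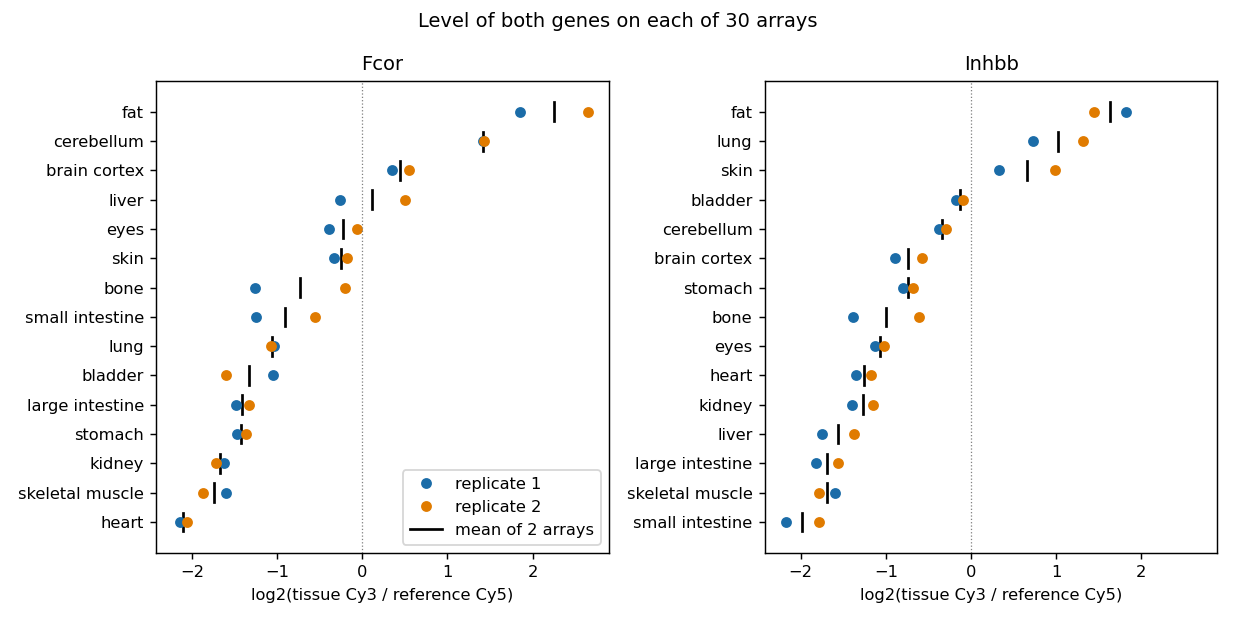
Logratio (log2 of tissue Cy3 over reference Cy5) of the Fcor probe (left) and the Inhbb probe (right) on each of 30 arrays, with tissues ordered by their mean. Points are single arrays and black ticks the means of 2 arrays; both fat points lie to the right of all others, by 0.42 for Fcor and 0.12 for Inhbb.

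Probes with both fat arrays above the other 28 made up 0.851% of the 21025 tested (179 probes), and the 2 genes were selected among the named ones, so nothing is read from their belonging there. Among named probes of this kind that were higher in fat, Fcor (3.03) and Inhbb (2.47) had the greatest log2 differences, and those just outside were 1700009N14Rik (2.46) and Ppp2r1b (2.39). In the information measure of tissue specificity used by the study, which is 0 bits for equal levels and 3.91 bits for a gene found in 1 tissue alone, Fcor had 0.658 bits and Inhbb 0.466, against a median of 0.159 over all probes. Over the 14 tissues without fat they had 0.383 and 0.314 bits.

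The signals behind these ratios differed between the genes. The Inhbb probe read 1816 and 1620 scanner units of Cy3 in fat, and 74.4 to 1145 on the other 28 arrays (median 226). Its Cy5 reference signal in fat (1163 and 984) lay within the range of those arrays (772 to 1184). The Fcor probe read 2749 units of Cy3 on fat replicate 1 and 14356 on fat replicate 2, a 5.22-fold gap between replicates, with 92.1 to 2216 elsewhere (median 210). Its Cy5 signal was 996 to 1628 on the other 28 arrays, 1755 on fat replicate 1 and 4427 on fat replicate 2, which is 3.26 times the median of the other arrays although the reference RNA was the same.

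A raised reference signal was a general trait of probes that were far brighter on an array than elsewhere, and not one of fat replicate 2 alone. Of its 108 probes with at least 10000 units of Cy3 and at least 16 times the median of the other arrays, 65 had a Cy5 signal at least 2-fold above its own median over the other arrays, after the array's overall shift in Cy5 was removed, and the median excess of the 108 was 3.48-fold. Over all 21025 probes of that array, 265 (1.26%) had such a Cy5 signal, and 102 of its 1243 probes with at least 10000 units of Cy3 did. The 65 were 60.2% of the 108, and on the 28 arrays of the other tissues the corresponding share was 54.2% to 88.1%, with 22 of them above fat replicate 2. The part of this in the Fcor ratio was not tested. With the Cy3 level alone, quantile-normalized and without the reference, the log2 difference of Fcor was 3.98 and that of Inhbb 2.61. Both probes were well above background in both channels on all 30 arrays.

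**Figure D2:**
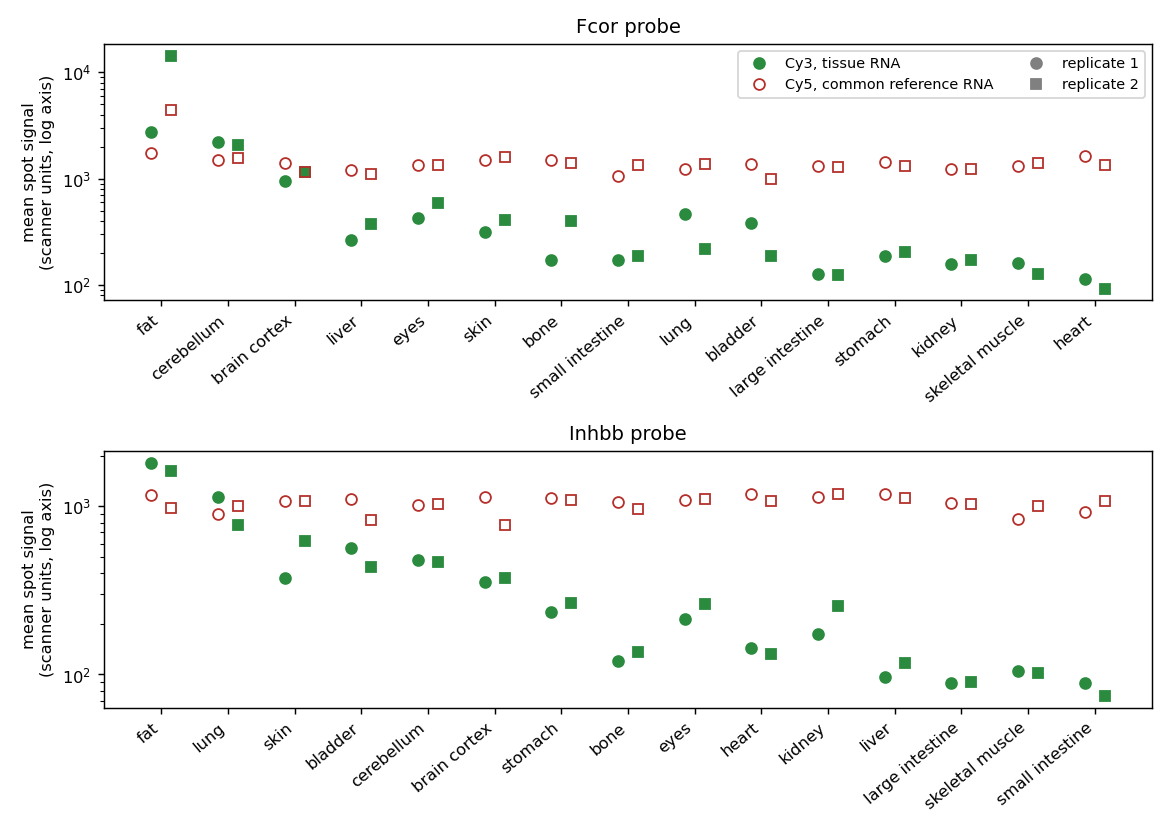
Mean spot signal in scanner units (log axis) of the Fcor probe (top) and the Inhbb probe (bottom) for each array, filled green for tissue Cy3 and open red for reference Cy5, circles for replicate 1 and squares for replicate 2. The Cy5 signal is nearly level across tissues except for Fcor on fat replicate 2, where it reaches 4427 units.

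The level of fat moved with the normalization, and its rank did not in the 4 alternatives checked. After median centring in place of loess, the Fcor logratios of fat fell to 1.08 and 0.99 and still exceeded the highest other array by 0.18. For Inhbb, fat kept the highest mean (0.58, with lung at 0.45), but its lower array fell below the highest other array by 0.55 on the log2 scale, so that the arrays overlapped. Under the scanner software's processed signals, the authors' value table and the Cy3 level alone, both fat arrays of each gene stayed above all others. Cerebellum and then brain cortex followed fat for Fcor, and lung and then skin for Inhbb, under each of these settings.

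The 2 fat arrays were scanned on separate days, one of them with bone replicate 2 on its slide. On fat replicate 1, Fcor exceeded the mean of the 9 other arrays of the same scan day by 3.01 and Inhbb by 2.93 (log2). On fat replicate 2, they exceeded bone replicate 2, the 1 other array of that day and slide, by 2.85 and 2.06. With slide as a fixed block, which could be fitted only for fat against 6 tissues on connected slides, the log2 differences were 2.37 for Fcor and 1.47 for Inhbb, against 3.32 and 2.70 without the block. Since fat replicate 1 was alone on its slide, the fat side of that fit rests on fat replicate 2 and on bone replicate 2 beside it. This alternative was chosen after seeing the data.

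Among the 14 tissues other than fat, both genes differed. The moderated F-test of limma, adjusted by Benjamini-Hochberg over all 21025 probes, gave Fcor an F of 18.3 (adjusted p = 2.60e-07) and Inhbb an F of 23.1 (adjusted p = 4.85e-08). This did not set the genes apart, since 90.2% of all probes passed the same test. The fit treated arrays as independent, although over all probes the correlation within a slide was 0.692 and within a scan day 0.586. For many tissues both arrays shared a slide, so tissue and slide cannot be told apart there, nor in the pairs below. With slide as a random block the F-test gave adjusted p = 4.01e-07 for Fcor and 1.80e-08 for Inhbb. The highest of these tissues exceeded the lowest by 11.5-fold for Fcor and 8.02-fold for Inhbb, against 4.95-fold for the median probe.

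The 91 pairs of these 14 tissues were compared to ask which neighbours in the order differ beyond their spread, with p-values adjusted over all probes and pairs together and a log2 difference of at least 1 required. Fcor differed in 45 pairs (49.5%) and Inhbb in 34 (37.4%), where 27.8% of all combinations of probe and pair passed and the median probe passed in 24 pairs. As many pairs as Fcor, or more, were reached by 20.2% of probes, and as many as Inhbb by 35.2%. No pair of tissues that were next to each other in either order passed. The counts moved with the scaling, and so did which gene had more. With the Cy3 level alone 27 pairs passed for Fcor and 34 for Inhbb, 50 and 58 did with processed signals and with the authors' value table, and 42 and 45 with median centring. In the loess values, the closest neighbours to passing were cerebellum over brain cortex for Fcor (log2 difference 0.97, limma adjusted p = 0.0214) and skin over bladder for Inhbb (0.79, adjusted p = 0.0204), both under the minimum difference.

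Cerebellum had more Fcor than 12 of the 13 other tissues, all except brain cortex. Its excess ran from 2.46-fold over liver (limma adjusted p = 0.00309) to 11.5-fold over heart (adjusted p = 5.19e-08). Brain cortex exceeded 9 tissues, liver 8, and eyes and skin 6 each. Heart had less Fcor than 8 tissues and skeletal muscle less than 6, and neither exceeded any.

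Lung had more Inhbb than 12 of the 13 others, all except skin (log2 difference 0.37, limma adjusted p = 0.301). Its excess ran from 2.23-fold over bladder (adjusted p = 0.00139) to 8.02-fold over small intestine (adjusted p = 2.47e-08). Skin exceeded 10 tissues, bladder 6 and cerebellum 4. Small intestine had less Inhbb than 6 tissues, and liver, large intestine and skeletal muscle less than 4 each.

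**Figure D3:**
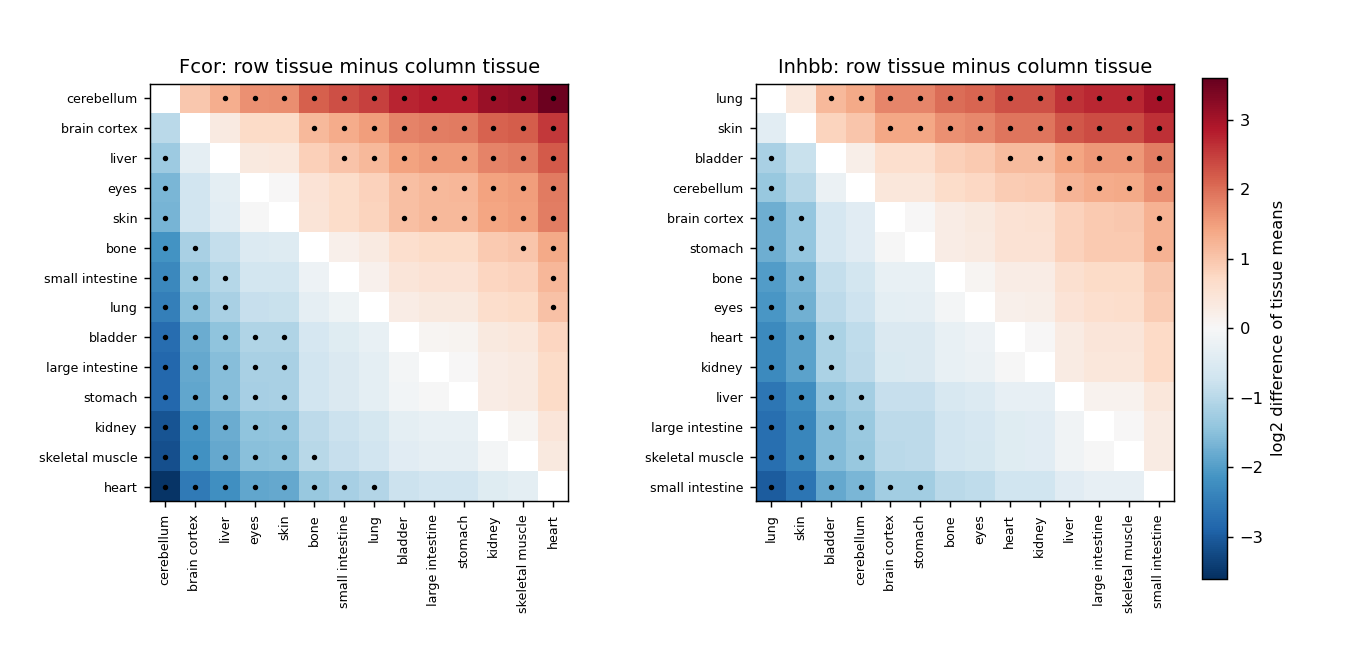
Log2 difference of tissue means, row minus column, for Fcor (left) and Inhbb (right) among the 14 tissues other than fat, ordered by level, with red for higher and blue for lower in the row tissue. Dots mark pairs that passed (adjusted p under 0.05 and a log2 difference of at least 1): 45 pairs for Fcor, led by the cerebellum row, and 34 for Inhbb, led by the lung and skin rows.

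The 2 genes shared fat as their highest tissue and little of the remaining order. Across the 15 tissue means the Pearson r between them was 0.530 (Spearman rho 0.464), and without fat it was 0.240 (rho 0.341) across 14. These points share arrays and normalization, and r is given as a description. By that measure over the 14 tissues without fat, Inhbb ranked 6169 among the other 21024 probes in likeness to Fcor, and Fcor ranked 5443 in likeness to Inhbb. With fat, on which both were chosen, the ranks were 850 and 904. Liver was the fourth tissue for Fcor (0.12) and the twelfth for Inhbb (-1.56), and lung was the second for Inhbb (1.02) and the ninth for Fcor (-1.06).

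Of the named probes, those most like Fcor over the 15 tissues were 1700019M22Rik (r 0.861), Fmr1 (0.833), Fam24b (0.818), Arxes1 (0.807) and Erich6 (0.803). For these, and for those most like Inhbb below, the fat level is the mean of arrays that agreed poorly (r 0.671). Whether both fat arrays share it was not examined. Fmr1 encodes the RNA-binding protein lost in fragile X syndrome, and its own highest level was in fat (1.07), with brain cortex next (0.19). Arxes1, an X-linked gene named for its expression in adipocytes, was high in cerebellum (2.87), brain cortex (2.44), eyes (2.21) and fat (2.15) and between -2.96 and -1.86 in the other 11 tissues. It has a near-identical neighbouring copy, Arxes2, which its probe was not tested to tell apart. Without fat, Aatk, a kinase gene known from the nervous system, was the likest (0.899), with logratios of 6.46 in cerebellum and 6.42 in brain cortex against 3.83 in fat. Next over the 14 tissues were 1700047M11Rik (0.866), 5430400D12Rik (0.858), BC023814 (0.856) and Pqbp1 (0.852), all highest in cerebellum.

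The named probe most like Inhbb was Ltbp3 (r 0.812), whose product binds the latent form of transforming growth factor beta. Its logratio was highest in fat (0.75), followed by lung (0.13) and bladder (-0.03), and lowest in liver (-3.10). Mprip, a regulator of myosin phosphatase, came second (0.794) and led the order without fat (0.870), with its highest level in lung (1.12). The others over the 15 tissues were 5031425E22Rik (0.777), Spaca6 (0.774) and Fam166b (0.761), all highest in lung. Over the 14 tissues they included Eva1c (0.861), Gm973 (0.844) and EG433319 (0.834). No probe was among the 5 likest of both genes.

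**Figure D4:**
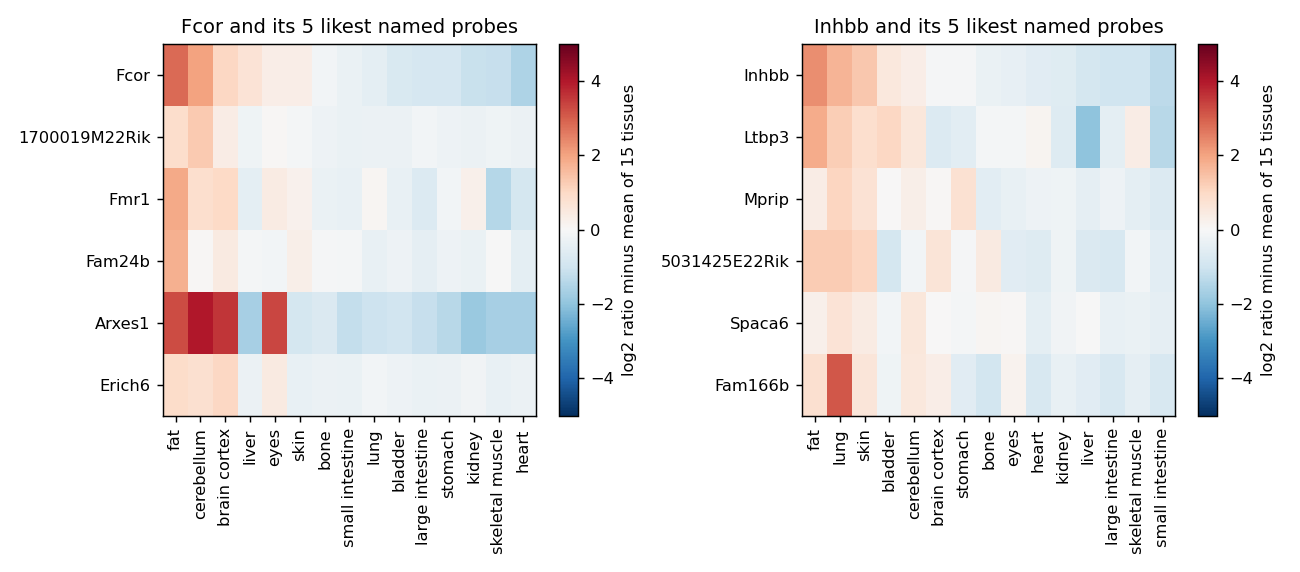
Tissue means of Fcor (left), Inhbb (right) and the 5 named probes most like each over 15 tissues, as logratio minus the probe's mean over the tissues. Columns follow the order of the top gene, and red, above the probe's own mean, falls mostly on fat, cerebellum and brain cortex in the Fcor group and on fat, lung and skin in the Inhbb group.

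The genes around Inhbb and Fcor in their pathways were asked the same question, fat against the mean of the other 14 tissues, where 6.43% of all probes passed as higher and 5.37% as lower (limma, adjusted p under 0.05 and a log2 difference of at least 1). Of the activin pathway, 10 of 40 listed genes had a named probe past the filter, with 0 higher in fat, 1 lower and a median difference of -0.53, against -0.06 over all probes. At an unadjusted p under 0.05 and with no minimum difference, 3 were higher and 6 lower, where 19.1% of all probes were higher and 23.3% lower. The ligand Mstn was the 1 called lower (-1.55, limma adjusted p = 0.0304). That call was lost with slide or scan day as a random block, with median centring, with the Cy3 level alone and with weights for the spread of each tissue. The Mstn signal was not well above background on either fat array, so its level there (0.07) is only a bound. The lowest tissue, small intestine, had -0.02. The mean of the other 14 tissues (1.62) includes skeletal muscle, with a logratio of 7.60.

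Inha, the partner of Inhbb in inhibin B, had logratios of 1.48 and -0.18 in fat, and its highest mean was in brain cortex (1.95). Its fat difference was 0.59 (limma adjusted p = 0.0678). The type II receptors Acvr2a (-0.59), Acvr2b (-0.82) and Bmpr2 (-0.72) and the type I receptor Acvr1b (-0.84) all had a difference below 0 in fat, each with an adjusted p under 0.05 and none at the minimum difference. The type I receptors Acvr1 (0.48) and Acvrl1 (0.68) had a difference above 0, likewise short of it. Acvrl1, known from vessel endothelium, was highest in lung (4.63) and reached 3.08 in fat. The coreceptor gene Cfc1 (0.12) and the nuclear Smad partner Foxh1 (-0.47) did not pass, and Cfc1 was not well above background on either fat array.

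Around Fcor, 6 of 45 listed genes of the insulin and FOXO pathway had a named probe past the filter, and 0 passed in either direction by limma (median difference -0.09), while 2 were lower and 0 higher at an unadjusted p under 0.05 with no minimum difference, where 23.3% of all probes were lower and 19.1% higher. The deacetylase genes Sirt3 (-0.84, limma adjusted p = 1.80e-05) and Hdac4 (-0.77, adjusted p = 9.27e-04) lay below the mean of the other 14 tissues by less than the minimum difference. Hdac3 (0.24), Irs1 (-0.06), Pik3ca (0.10) and Tsc2 (-0.12) had adjusted p-values from 0.165 to 0.816. Foxo1 itself had no named probe here.

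Genes of fat metabolism did rise in fat. Of the list of adipocyte lipid and signalling genes, 10 of 54 had a named probe past the filter, 7 were higher in fat and 0 lower, where 6.43% of all probes were higher and 5.37% lower, and the median difference was 1.60 against -0.06 over all probes. At an unadjusted p under 0.05 and with no minimum difference, 9 were higher and 1 lower, against 19.1% and 23.3% of all probes. Acly, which makes the acetyl-CoA for fatty acid synthesis, had logratios of 2.28 and 2.11 in fat, 2.38 above the mean of the other tissues (SE 0.18, limma adjusted p = 2.14e-08). The cholesterol exporter gene Abca1 had 3.09 and 3.56, a difference of 2.30 (SE 0.30, adjusted p = 1.39e-05). Both were highest in fat. The fatty acid activating enzyme gene Acsl1 (2.28), the acyltransferase genes Agpat2 (1.92) and Dgat1 (1.61), which act in triglyceride synthesis, and the ligase and synthetase genes Aacs (1.59) and Acss2 (1.38) passed as well, each with a higher mean in liver or small intestine than in fat. Their logratios on fat replicates 1 and 2 were 4.27 and 4.78 (Acsl1), 1.65 and 2.93 (Agpat2), 1.53 and 2.89 (Dgat1), 1.47 and 2.41 (Aacs), and 2.37 and 4.45 (Acss2). The lipolysis cofactor gene Abhd5 (0.64) and the adenosine receptor gene Adora1 (0.79) did not pass. The summed linear ratio of the list was 61.7 on fat replicate 1, 100 on fat replicate 2 and 18.0 to 107 in the other tissues.

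**Figure D5:**
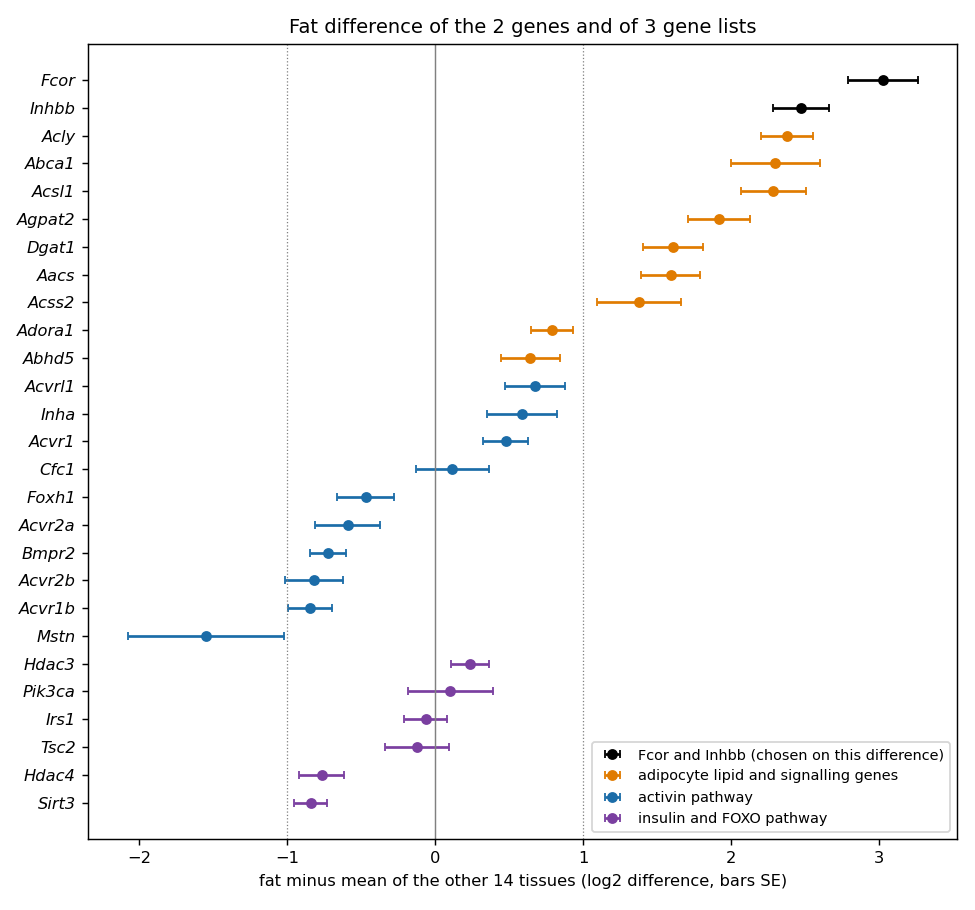
Fat minus the mean of the other 14 tissues (log2 difference, bars SE) for Fcor and Inhbb, which were chosen on it, and for genes of 3 lists, with dotted lines at the minimum difference of 1 either way. Of the 9 adipocyte lipid and signalling genes drawn, 7 lie beyond the upper line, and of 16 others Mstn alone lies beyond either line, on the lower side.

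None of 23 defining adipocyte markers had a named probe, so the label of fat could not be checked by them. Among markers of other cells, the testis list had 4 of 17 genes measured. Tnp1, a spermatid protein gene, had logratios of 3.90 on fat replicate 1 and 0.02 on fat replicate 2, and Adad1, another gene known from male germ cells, 2.71 and 0.10. Tnp1 was called higher in fat (1.78, limma adjusted p = 0.00908), its highest tissue, although it was well above background on only 1 of the 2 fat arrays, and the other 3 genes did not pass. Adad1 had its highest mean in small intestine, above either fat array. Acrbp (0.33 and -0.25) and Aard (-0.98 and -0.28) were not high on either fat array. The summed linear ratio of the list was 23.2 on fat replicate 1, 3.75 on fat replicate 2 and 3.55 to 13.1 in the other tissues. Inhbb and Inha are also known from testis, and both were higher on fat replicate 1. Without that array the difference of Inhbb was 2.29 and that of Fcor 3.43, and without fat replicate 2 they were 2.66 and 2.62. The part of testis RNA in these levels was not tested.

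Of the stroma and vessel list, Col3a1 (2.04) and Dpt (1.74) were higher in fat and Aqp1 (0.26) did not pass. The summed ratio of these genes, 14.9 on fat replicate 2, was 0.479 to 22.4 in the other tissues. Of the striated muscle list, Ankrd23 (-1.85) and Mstn were lower and Actn3 (-0.68) did not pass, with summed ratios of 2.79 and 2.83 in fat and 1.92 to 383 elsewhere. The leukocyte gene Ptprc had -1.87 and -0.91 in fat and a difference of 0.59 that did not pass. No marker of epididymis, pancreas or mesothelium had a named probe.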

How the data were processed

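The array scans were quantified by the authors in Feature Extraction (Agilent, version 9.5.1.1). Each deposited spot file holds mean signals and local backgrounds (Cy3 and Cy5), an intensity in scanner units, with flags of another kind for outliers, saturation and signal well above background. The authors' value table holds log10 values. Over 11667 bright probes it followed log10 of the processed Cy3 signal (slope 0.998) and, inversely, how far the log10 Cy5 signal departed from its average over arrays (slope -0.997). Its direction was the same as here.

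Background was corrected by normexp (offset 50) and arrays were normalized by loess, with 475 outlier spots removed, in limma 3.58.1 (R 4.3.3). Of 42006 probes, the 25030 of the authors' table were considered. The 21025 kept had Cy3 well above background in at least 1 tissue, on both of its arrays. The median Cy3 signal of an array was 85.7 to 175 units, and precision is limited by having 2 arrays per tissue. No spot was saturated (0 noncontrol spots). Linear models had 1 coefficient per tissue over 30 arrays, so that the spread was pooled (15 residual degrees of freedom). Tests were two-sided, with Benjamini-Hochberg adjustment. Fits were tested on simulated data.

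Symbols came from the study's probe lists and cover 24.0% of the probes kept, and unnamed probes may hold other genes of the lists. For a gene with several named probes the brightest was used. A few measured genes are not reported here, and the counts of lists include them. The members, lists, tests and alternatives were chosen with earlier results of these data known. Genes named are the 2 members, the measured genes of the pathway, lipid and marker lists, the 5 named probes most like each member over 15 and over 14 tissues, and the 2 probes just below the members in their ranking.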

Additional observations from a re-analysis of the deposited data

How the results depend on the processing

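The fat difference of both genes kept its direction, and both genes differed among the 14 tissues, under each alternative run, with limma adjusted p-values of at most 3.27e-04 for Fcor and 1.47e-07 for Inhbb outside leaving out arrays. In all, 445 values were recomputed under 22 alternative settings and by leaving out each of the 30 arrays, and 415 stayed within the spread between replicates, within 1.5 times the count or on the same side of the threshold. The fat differences could not change with the choice of probes, the replicate block or the weights for the spread of each tissue. Those values are among the 415 and say nothing of stability. The Fcor fat difference (3.03) became 2.63 with median centring, 3.38 with processed signals and with the authors' value table, 3.98 with the Cy3 level alone, 0.83 against the highest other tissue and 2.37 against 6 tissues with slide as a fixed block. The Inhbb fat difference (2.47) became 2.17 with median centring, 3.20 with processed signals and with the value table, 2.18 with slide as a random block, 0.61 against the highest other tissue and 1.47 against 6 tissues with slide as a fixed block. Pairs that passed became 27 for Fcor with the Cy3 level alone, and for Inhbb 58 with processed signals, 58 with the value table and 53 without a minimum difference. Probes differing among the 14 tissues numbered 30752 of 34644 when all probes of the array were used, where more probes were tested. The activin count of 1, which is Mstn, became 0 with median centring, the Cy3 level alone, the stricter filter, slide or scan day as a random block, weights for the spread of each tissue and a log2 difference of 2, and 2 with no background correction, processed signals and the value table. The adipocyte count of 7 became 3 with a log2 difference of at least 2. Apart from the changes of the setting itself, the cause was not tested.

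Leaving out each array in turn gave Fcor fat differences of 2.62 (without fat replicate 2) to 3.43 (without fat replicate 1), Inhbb differences of 2.29 to 2.66, 18610 to 19425 probes differing among the 14 tissues, 42 to 48 Fcor pairs, 33 to 37 Inhbb pairs and 6 to 8 adipocyte genes. Slide or scan day as a fixed block could not be fitted over all 15 tissues, because groups of tissues share no slide or day, and these alternatives were not run. Arrays were not treated as paired by replicate number. Differences between replicates correlated between tissues with a mean r of 0.060 (-0.248 to 0.343 over 105 pairs of tissues, 32 of them above 0.1). Whether arrays of the same replicate number came from the same animal was not tested. Each tissue has 1 array of each replicate number, so the replicate block could not change the fat differences (3.03 and 2.47). It changed no call or count by over 1.5 times. Neighbouring tissues can change places with the scaling, as liver and eyes did for Fcor with median centring and eyes and skin with the Cy3 level alone. Signal over background limited neither member, and it limited Mstn and Cfc1 on both fat arrays and Tnp1 on 1.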
